A study of Mus musculus with 65 samples.

Results

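SYCP3 is a filament-forming protein of the meiotic chromosome axis, the protein core along which chromatin loops are anchored in spermatocytes, and later of the lateral elements of the synaptonemal complex. SPO11 is the topoisomerase-like protein that cuts DNA at recombination hotspots chosen by the methyltransferase PRDM9. The cut ends are resected to single strands, which the recombinase DMC1 coats, while MEI4 and IHO1 assemble on the HORMAD1-bearing axis as cofactors of cutting. CTCF, an architectural protein, binds DNA sites that are shared by many cell types and halts the cohesin complexes that extrude loops.

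The peaks described here are all those of SYCP3 chromatin immunoprecipitation and sequencing in wild-type mice (C57BL/6JCrl, 2 samples, 1911 peaks) and in Spo11KO mice (allele Spo11tm1Mjn, 1 sample, 2369 peaks), 4280 of the 97260 peaks in the 24 lists of the series. Every group was made from whole testes of male pups whose germ cells had first been held back, from 1.5 days of age and over 7 to 10 days of feeding, with the compound WIN 18,466, which blocks retinoic acid production, and were then released together by an injection of retinoic acid. Collection followed 8 days later, at a stated purity of 80 to 95% leptotene and zygotene spermatocytes, the stages at which breaks form and the axis assembles. MEI4, IHO1 and HORMAD1 lists of the wild type and Spo11KO (2 samples each) and the SYCP3 lists of 4 more knockouts serve for comparison: Prdm9KO (B6;129P2-Prdm9tm1Ymat/J, 1 sample), Mei4KO (Mei4tm1Bdm, 2 samples), Iho1KO (Iho1tm1.2Atot, 1 sample) and Hormad1KO (Hormad1tm1.2Atot, 2 samples). All carry the same strain label and had the same treatment. A peak is an interval with a start and an end and no strength, so a site whose signal was lower and a site with no signal cannot be told apart when a peak is missing. Each group had 1 list, so no difference below has a replicate check. The lists hold no read depth, no measure of stage and no check of the Spo11 genotype, and whether any of these moved with the results was not tested. Intervals in parentheses are 95% intervals that cover counting error only and take peaks as independent.

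A peak was called shared where it overlapped a peak of the other list by at least 1 bp. By that rule 743 wild-type peaks (38.9%, 36.7 to 41.1) were found in Spo11KO, and 740 Spo11KO peaks (31.2%, 29.4 to 33.1) were found in the wild type. The remaining 1168 wild-type peaks were absent from Spo11KO, and 1629 Spo11KO peaks were absent from the wild type. The 3 classes differed most clearly at gene start sites. Peaks of the wild type alone and shared peaks were mostly at hotspots, with fewer at CTCF peaks. Peaks of Spo11KO alone were mostly at gene start sites.

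The promoters of 4 genes show the kind of DNA under the Spo11KO-only peaks. Sycp3 and Dazl (a germ cell RNA-binding protein) stand for meiotic and germ cell genes, and Kpnb1 (the nuclear import receptor importin beta) and H4c2 (a histone H4 gene) for sites whose peak was also in all 4 of the other knockout SYCP3 lists. Each line is RefSeq sequence of assembly GRCm38.p6 from 250 bases before to 50 bases after the start site, written along the gene. Capitals mark matches on either strand to the short motifs that are searched and spelled out further on: those of SP/KLF, YY1 and NRF1 factors, the E-box and the CCAAT box.
Sycp3, chr10:88459337-88459636, plus strand: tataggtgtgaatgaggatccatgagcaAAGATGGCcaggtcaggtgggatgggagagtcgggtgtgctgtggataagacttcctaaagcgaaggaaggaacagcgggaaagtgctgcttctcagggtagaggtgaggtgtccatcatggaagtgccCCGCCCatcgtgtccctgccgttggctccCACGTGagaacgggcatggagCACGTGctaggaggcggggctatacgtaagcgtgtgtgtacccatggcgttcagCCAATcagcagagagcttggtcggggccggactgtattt
Dazl, chr17:50293571-50293870, minus strand: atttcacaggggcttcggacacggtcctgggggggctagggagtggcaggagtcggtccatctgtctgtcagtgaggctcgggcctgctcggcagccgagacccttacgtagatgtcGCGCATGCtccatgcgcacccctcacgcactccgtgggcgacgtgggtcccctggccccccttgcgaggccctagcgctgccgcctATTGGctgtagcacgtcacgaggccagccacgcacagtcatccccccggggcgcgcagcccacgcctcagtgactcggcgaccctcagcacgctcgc
Kpnb1, chr11:97187843-97188142, minus strand: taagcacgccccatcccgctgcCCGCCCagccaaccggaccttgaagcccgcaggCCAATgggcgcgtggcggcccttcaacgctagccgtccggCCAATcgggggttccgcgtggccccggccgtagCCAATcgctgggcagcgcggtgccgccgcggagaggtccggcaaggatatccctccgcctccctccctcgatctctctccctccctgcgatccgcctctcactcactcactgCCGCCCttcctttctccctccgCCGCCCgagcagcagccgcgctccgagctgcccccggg
H4c2, chr13:23756687-23756986, plus strand: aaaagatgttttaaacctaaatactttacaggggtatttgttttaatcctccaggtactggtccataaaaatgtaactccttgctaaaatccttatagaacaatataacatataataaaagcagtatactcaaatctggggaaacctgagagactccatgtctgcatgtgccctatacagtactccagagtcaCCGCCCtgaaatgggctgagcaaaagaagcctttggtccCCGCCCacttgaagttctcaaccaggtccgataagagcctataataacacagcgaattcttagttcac
The Dazl and Kpnb1 windows hold 28 and 35 CG dinucleotides, the Sycp3 window 15 and the H4c2 window 4, so a promoter with few CG was also among the sites.

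DMC1 hotspots, the 13808 places where the authors' wild-type DMC1 list places single-stranded break ends, separated the classes first. Hotspots lay under 63.8% of wild-type-only peaks (61.0 to 66.5) and 54.1% of shared wild-type peaks (50.5 to 57.7), a difference of 9.68 points (5.16 to 14.2). That difference depends on how overlap is counted. It was -15.1 points (-19.6 to -10.5) when 50% of the shorter interval had to be overlapped and 2.85 points (-1.81 to 7.51) when each peak was replaced by the 1 kb around its middle. In the mutant the order was the other way round and did not turn with any of the alternatives, since 24.7% of Spo11KO-only peaks (22.7 to 26.8) against 53.1% of shared Spo11KO peaks (49.5 to 56.7) were at hotspots, a difference of -28.4 points (-32.5 to -24.2).

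**Figure D1:**
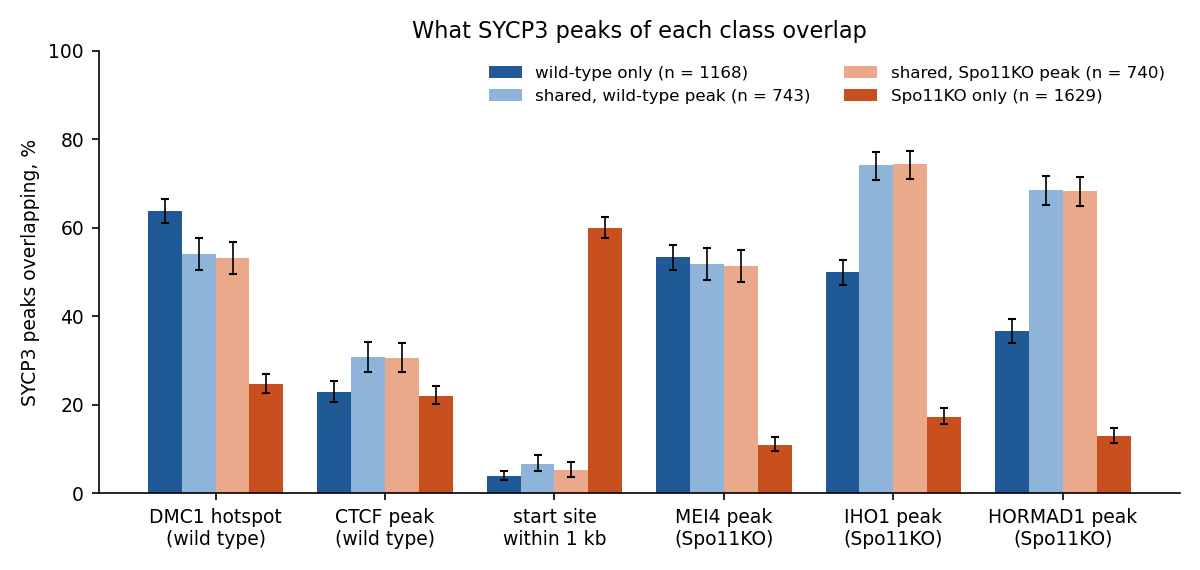
Bars give the percentage of SYCP3 peaks in each class (y axis) that overlap 6 kinds of feature (x axis), with Wilson 95% intervals as error bars. Start sites lie under 60.0% of Spo11KO-only peaks and under at most 6.60% of any other class, and the 3 Spo11KO partner lists lie under fewer Spo11KO-only peaks than shared ones.

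The hotspots held by each class also differed in DMC1 value, the authors' signal per hotspot in a unit they did not name. The median value of the strongest hotspot under a peak was 2322 (2164 to 2454) for wild-type-only peaks, 3165 (2858 to 3484) for shared wild-type peaks and 155 (110 to 229) for Spo11KO-only peaks. The median over all hotspots was 129. In the last class the 174 peaks at gene start sites had a median of 60.5 (54.0 to 68.5). Away from start sites the 228 Spo11KO-only peaks at hotspots had a median of 692 (572 to 782), still below the other classes.

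Ranked by DMC1 value into 10 equal groups, hotspots of the highest decile held a wild-type SYCP3 peak in 861 of 1380 cases (62.4%, 59.8 to 64.9) and a Spo11KO peak in 401 (29.1%, 26.7 to 31.5). Over all hotspots these shares were 7.47% and 5.75%. In the ninth decile the lists were alike at 8.47% (7.12 to 10.1) and 7.46% (6.19 to 8.97). In the 8 weaker deciles the mutant list covered more hotspots, from 1.59 to 3.33% against 0.217 to 1.01% in the wild type. In the weakest decile 35 of the 46 hotspots with a Spo11KO peak lay within 1 kb of a start site, as did 245 of all 1381 hotspots of that decile (17.7%). In the highest decile 28 of all 1380 hotspots (2.03%) did.

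**Figure D2:**
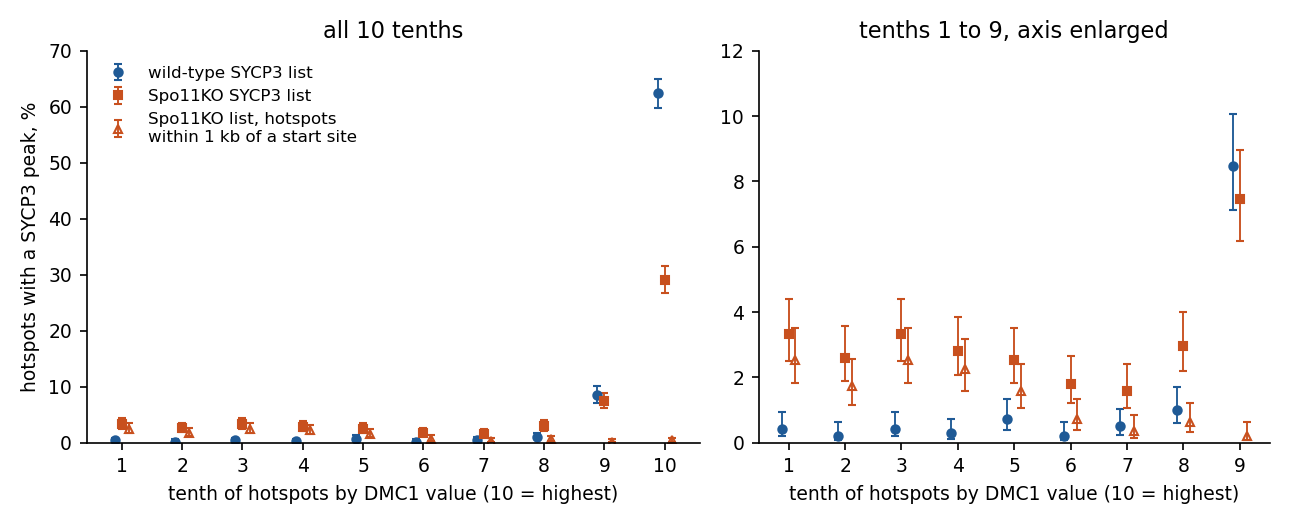
Points give the percentage of hotspots with a SYCP3 peak (y axis) in each decile of DMC1 value (x axis, 10 the highest), for the wild-type list, the Spo11KO list, and Spo11KO peaks at hotspots within 1 kb of a start site, with Wilson 95% intervals. The right panel enlarges the weaker 9 deciles, where Spo11KO lies above the wild type up to the eighth. In the highest decile both lists reach their largest share, with Spo11KO at 29.1% below the wild type at 62.4%.

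Within the highest decile, 344 hotspots had a peak in both lists, 517 in the wild type alone, 57 in Spo11KO alone and 462 in neither. MEI4, the break cofactor, was listed in Spo11KO at 94.5%, 94.8%, 96.5% and 89.4% of these 4 sets in turn, lowest where neither list had a SYCP3 peak. The wild-type MEI4 list had 75.6%, 69.1%, 77.2% and 50.9% of them. HORMAD1, the axis protein that recruits IHO1, was listed in Spo11KO at 69.8% (64.7 to 74.4) of hotspots with both SYCP3 peaks, 32.9% (29.0 to 37.0) of those with the wild-type peak alone and 11.5% (8.88 to 14.7) of those with neither. IHO1 was at 90.7%, 76.8% and 54.3% of these 3 sets. At the 57 hotspots with a SYCP3 peak in Spo11KO alone, HORMAD1 was listed at 49.1% (36.6 to 61.7) and IHO1 at 98.2% (90.7 to 99.7). The wild-type HORMAD1 list had 67.4%, 53.4%, 26.3% and 9.09% of the 4 sets in the first order. The wild-type IHO1 list had 62.8%, 46.0%, 22.8% and 8.87% of them, so both also fell from hotspots with both SYCP3 peaks to those with neither in the wild type. Median DMC1 values of the 4 sets, in the first order, were 3531, 2606, 1928 and 1658. The partner proteins were therefore compared among hotspots that also differed in break signal, and the part of that difference was not tested.

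The shape of SYCP3 peaks at hotspots changed where the peak itself was kept. Among 705 pairs in which 1 wild-type peak met 1 Spo11KO peak, 377 were at a hotspot. There the median width was 5349 bp (5172 to 5530) in the wild type and 1873 bp (1816 to 1947) in Spo11KO, a median ratio of 0.352 (0.341 to 0.364). The Spo11KO peak was the narrower in 362 of the 377 pairs (96%) and lay wholly inside the wild-type peak in 335 (88.9%). Pairs at CTCF peaks without a hotspot kept their width. Their medians were 1769 bp (1636 to 2113) and 1893 bp (1754 to 2194), their median ratio was 1.01 (0.977 to 1.04), and 88 of 182 (48.4%) were narrower in Spo11KO. At 146 pairs with neither site the ratio was 1.02 (0.999 to 1.05). The share of narrowed pairs at hotspots exceeded that at CTCF peaks by 47.7 points (40.0 to 55.0). All these pairs come from the same 2 lists. The ratio at hotspots was 0.353 when the hotspot was assigned from the Spo11KO peak in place of the wild-type peak.

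**Figure D3:**
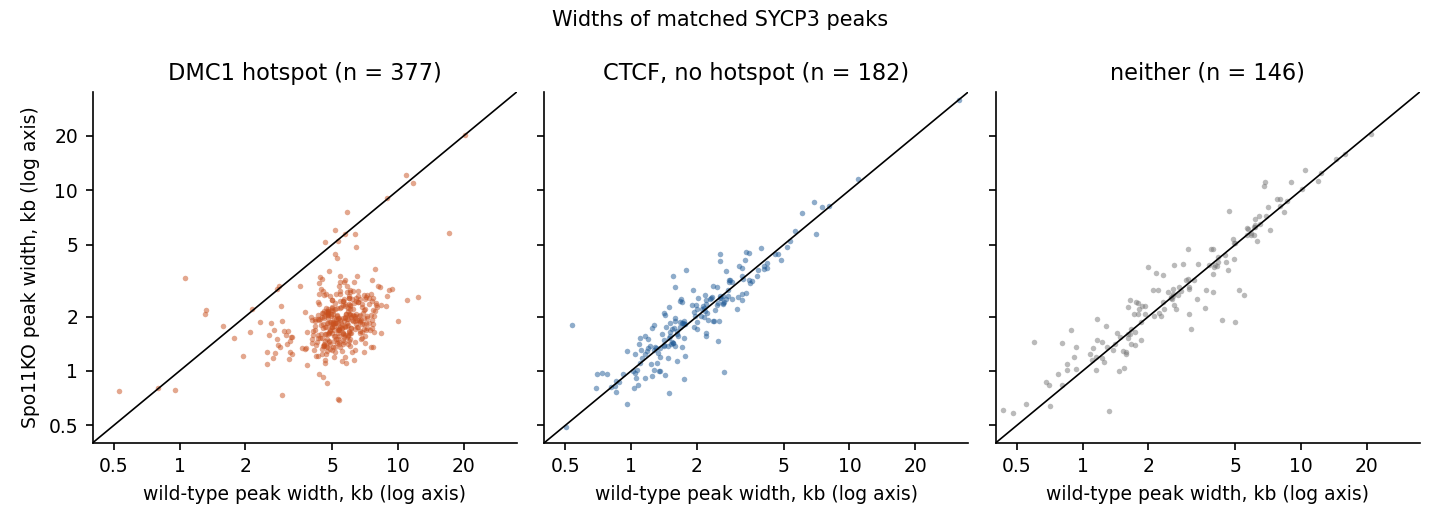
Each point is a pair of overlapping SYCP3 peaks, with the wild-type width on the x axis and the Spo11KO width on the y axis, both in kb on log axes, and the line marks equal widths. The 377 pairs at hotspots lie mostly below the line (median 5349 against 1873 bp), and the 182 pairs at CTCF peaks and 146 at neither scatter along it.

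Wild-type width at hotspots followed the DMC1 value, and Spo11KO width did not show such a rise. With the 377 pairs ranked by DMC1 value into 4 equal sets, from the weakest set to the strongest, the wild-type median was 4622, 4980, 5585 and 6716 bp. The Spo11KO median was 1873, 1771, 1878 and 1958 bp, and its intervals overlapped across all 4. The ratio fell from 0.438 (0.386 to 0.466) to 0.290 (0.278 to 0.312).

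Seen from the hotspot, the part not covered in Spo11KO was the flanks. At the 399 hotspots with a peak in both lists, the centre was covered at 96.7% by wild-type and 99.7% by Spo11KO peaks. At 1000 bp to the left it was covered at 95.2% and 43.9%, and at 2000 bp at 90.7% and 5.01%. The right side had 95.7% and 40.1%, then 90.2% and 4.76%. At the 181 CTCF peaks with both, cover 1000 bp to the left was 46.4% in the wild type and 48.6% in Spo11KO.

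**Figure D4:**
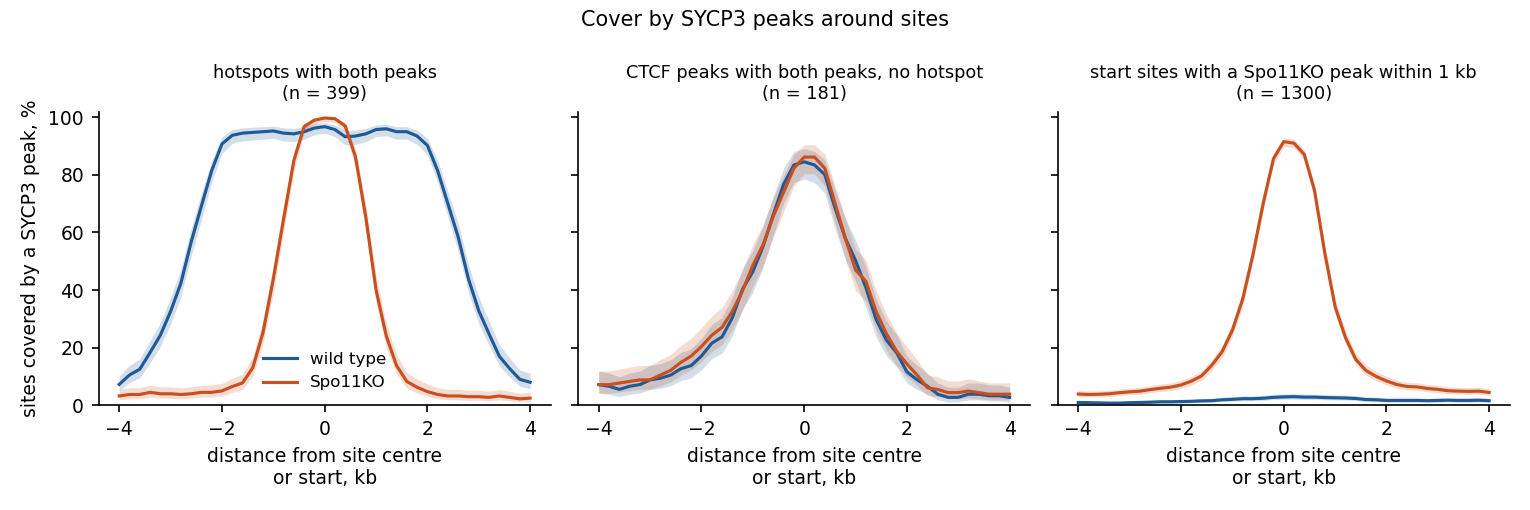
Lines give the percentage of sites covered by a SYCP3 peak (y axis) by distance in kb from the site's centre or start (x axis, downstream to the right for start sites), in the wild type and Spo11KO, with Wilson 95% bands. Hotspots with both peaks show a wild-type plateau that still covers 90.7% at 2000 bp against 5.01% in Spo11KO, CTCF peaks show 1 shape, and the start sites, chosen for having a Spo11KO peak, are covered at the start at 91.5% against 2.92%.

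Some hotspots had wild-type SYCP3 peaks on the flanks alone. The centre was covered at 820 of the 1031 hotspots with a wild-type peak (79.5%) and at 765 of the 794 with a Spo11KO peak (96.3%). Of the 1031, 121 (11.7%, 9.91 to 13.8) had 2 or more wild-type peaks, and at 60 of these the hotspot centre was not covered. In Spo11KO 1 of 794 hotspots had 2 or more peaks, and a Spo11KO peak lay over the centre at 2 of the 60. Wild-type-only peaks at hotspots and away from start sites covered the centre in 56.9% of 720 cases, with a median offset of 978 bp (875 to 1088). Shared wild-type peaks covered it in 96.1%, shared Spo11KO peaks in 99.5% and Spo11KO-only peaks in 95.6%, with median offsets of 225, 155 and 186 bp.

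The partner proteins of Spo11KO gave a measure of which of them shared the change of width. HORMAD1 pairs narrowed at hotspots about as SYCP3 did, from a median of 5525 to 1903 bp in 320 pairs, a ratio of 0.361 (0.346 to 0.382), against 0.911 (0.878 to 0.936) at 524 CTCF pairs. IHO1 pairs had a ratio of 0.515 (0.485 to 0.548) at 399 hotspots and 1.06 (0.996 to 1.12) at 199 CTCF peaks. MEI4 pairs, nearly all at hotspots, measured 1938 bp in the wild type and 1923 bp in Spo11KO over 1411 pairs, a ratio of 0.974 (0.954 to 0.991). Other mutants can be set beside these widths, since their SYCP3 lists were made with the same antibody label. At hotspots away from start sites the median SYCP3 width was 4342 bp in the wild type and 4603 bp (4067 to 4897) in Hormad1KO, against 1753 bp (1680 to 1816) in Spo11KO, 1807 bp (1604 to 2197) in Mei4KO and 1366 bp (1274 to 1448) in Iho1KO. Prdm9KO, with 63 such peaks at these wild-type hotspots, gave 3453 bp (2849 to 4974). Such peaks numbered 1100 in the wild type, 179 in Hormad1KO, 612 in Spo11KO, 58 in Mei4KO and 339 in Iho1KO. These were not matched by site between the lists. The lists also differed at CTCF peaks without a hotspot or start site, where the medians were 1618 bp (1522 to 1719) in the wild type, 1499 bp (1409 to 1579) in Hormad1KO, 1758 bp (1641 to 1886) in Spo11KO, 1754 bp (1616 to 1890) in Mei4KO, 1233 bp (1194 to 1284) in Iho1KO and 2330 bp (2012 to 2752) in Prdm9KO. By these medians Iho1KO peaks were the narrowest of the 6 lists at both kinds of site, and Prdm9KO peaks were the widest at CTCF peaks.

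The strongest shared hotspots show the pattern singly. At chr11:89607577-89616426 (build mm10), under a DMC1 value of 20822.5, the wild-type peak was 8850 bp and the Spo11KO peak 2279 bp, and none of the Spo11KO MEI4, IHO1 and HORMAD1 lists had a peak. At chr1:67958395-67965615, with a value of 18266.5, the widths were 7221 and 2027 bp, and all 3 partner lists of Spo11KO had a peak. At chr12:34591235-34598736, with a value of 17525, they were 7502 and 2030 bp. All 3 mutant peaks lay inside the wild-type peak.

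Other strong hotspots had a SYCP3 peak in only 1 of the lists. The wild-type-only peak at the highest DMC1 value, 20513.5, was chr2:38133057-38141261, 8205 bp wide, where Spo11KO had MEI4, IHO1 and HORMAD1 peaks and no SYCP3 peak. The next were chr1:68485783-68492155, with a value of 18961, and chr10:92674652-92684712 at an end of Nedd1, with 18957.5. Of the Spo11KO-only peaks the one at the highest value, 10160, was chr17:78650213-78652265 at an end of Strn. It was 2053 bp wide with its centre 2 bp from that of the hotspot, and all 3 partners were listed there in both genotypes.

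CTCF peaks lay under fewer peaks of either unshared class. They were at 23.0% of wild-type-only against 30.7% of shared wild-type peaks (-7.74 points, -11.9 to -3.67), and at 22.0% of Spo11KO-only against 30.5% of shared Spo11KO peaks (-8.50 points, -12.4 to -4.68). Among peaks away from hotspots the first difference was -2.55 points (-9.61 to 4.56) and the second -28.5 points (-34.2 to -22.7). Among the wider 50% of each list the second was 10.6 points (5.45 to 15.4). CTCF peaks without a hotspot or start site were at 6.51% of Spo11KO-only and 23.2% of shared Spo11KO peaks. The median score of the highest CTCF peak under a SYCP3 peak, the authors' own value, was 3.46 (3.26 to 3.63) for wild-type-only, 3.78 (3.44 to 4.10) for shared wild-type and 2.19 (2.01 to 2.32) for Spo11KO-only peaks, against 1.92 over all 32676 CTCF peaks. Of the Spo11KO-only peaks, 222 at start sites had a median score of 2.1. The 106 without a hotspot or start site had 2.49, against 4.14 for such shared Spo11KO peaks. The 3 shared peaks at the highest CTCF scores changed little in width: 504 against 491 bp at chr14:124801617-124802120, 1488 against 1522 bp at chr9:124256357-124257844, and 2497 against 2368 bp at chrX:75672348-75674844. The chromosome 9 site lies in the last 3 Mb of that chromosome, a repeat region described further on.

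Gene start sites were the main address of SYCP3 in Spo11KO outside the shared set. Of Spo11KO-only peaks 977 of 1629 (60.0%, 57.6 to 62.3) lay within 1 kb of a protein-coding start site, against 38 of 740 shared Spo11KO peaks (5.14%, 3.76 to 6.97), a difference of 54.8 points (51.8 to 57.6). Wild-type-only peaks were there in 45 of 1168 cases (3.85%) and shared wild-type peaks in 49 of 743 (6.60%). The start sites come from a table with 17492 of the 21900 protein-coding genes, so these shares leave out peaks at the other genes. With either end of all 21900 genes the difference was 57.4 points (53.8 to 60.7).

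The peaks sat on the start of the gene far more often than on its end. For 13412 genes longer than 5 kb, the 5′ end lay within 1 kb of 48.4% of Spo11KO-only peaks (46.0 to 50.9) and the 3′ end of 9.15% (7.84 to 10.6). For wild-type-only peaks the order was the opposite, 2.14% (1.45 to 3.14) at 5′ ends and 7.53% (6.16 to 9.19) at 3′ ends, and shared Spo11KO peaks had 2.97% and 10.1%. The start site itself was inside 907 of the 977 peaks (92.8%). Peak centres lay a median 138 bp (120 to 154) downstream of the nearest start, and 708 (72.5%, 69.6 to 75.2) were on the downstream side. All 832 Spo11KO peaks at start sites without a hotspot, shared ones included, had a median width of 1398 bp (1347 to 1471), which overlaps the 1440 bp (1389 to 1535) of Spo11KO-only peaks at hotspots away from start sites.

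Break cofactors were listed at few of the start-site peaks. Of the 803 such Spo11KO-only peaks without a hotspot, the Spo11KO lists had MEI4 at 0 (an upper bound of 0.476%), IHO1 at 36 (4.48%) and HORMAD1 at 37 (4.61%). Of the 174 that were also at a hotspot, MEI4 was at 15 (8.62%, 5.29 to 13.7), IHO1 at 17 (9.77%) and HORMAD1 at 10 (5.75%). Of the matched MEI4 pairs 1411 of 1422 were at hotspots, so leaving hotspots out largely sets its count of 0. The 228 Spo11KO-only peaks at hotspots and away from start sites had MEI4 at 70.6%, IHO1 at 63.6% and HORMAD1 at 27.2%. Over the whole class, MEI4 was at 11% against 51.4% of shared Spo11KO peaks (-40.4 points, -44.2 to -36.4), IHO1 at 17.3% against 74.3% (-57.0 points) and HORMAD1 at 13.0% against 68.2% (-55.3 points). At hotspots away from start sites the differences were smaller for MEI4, -23.1 points (-29.7 to -16.9), and IHO1, -25.5 points (-32.4 to -18.5), and -39.7 points (-46.7 to -31.9) for HORMAD1.

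Many Spo11KO-only peaks were found again in other mutants, at listed start sites and outside them. Of the 803, 78% (75 to 80.7) were in the Iho1KO SYCP3 list, 38.6% (35.3 to 42.0) in Mei4KO, 12.2% (10.1 to 14.6) in Prdm9KO and 4.36% (3.15 to 6.00) in Hormad1KO. Over all 1629 Spo11KO-only peaks the shares were 68.6%, 33.3%, 13.1% and 7.55%. Spo11KO-only peaks at CTCF peaks without a hotspot or start site had 74.5% (65.5 to 81.9) in Iho1KO and 34.9% (26.5 to 44.4) in Mei4KO, with intervals that overlap those at start sites, and 29.2% (21.4 to 38.5) in Hormad1KO. Peaks at genes without a listed start, such as those at Psmd3 and Psmd7, can be among them. Recurrence away from all promoters was therefore not tested. These lists hold 5380, 1125, 607 and 823 peaks, and a longer list can contain more. The Iho1KO list had a peak within 1 kb of an end of 19% of all protein-coding genes. Of all 977 start-site peaks, 168 were in none of the 4 lists and 12 in all 4. Each list's own share of peaks at start sites was 4.92% (4.04 to 5.98) in the wild type, 10.9% (8.98 to 13.2) in Hormad1KO, 40.0% (36.2 to 44.0) in Prdm9KO, 42.8% (40.9 to 44.8) in Spo11KO, 46.9% (44.0 to 49.9) in Mei4KO and 56.5% (55.2 to 57.8) in Iho1KO. Neighbours in that order overlapped in their intervals from Prdm9KO to Spo11KO and from Spo11KO to Mei4KO, and the wild type, Hormad1KO and Iho1KO stood apart. In that order the groups had 2, 2, 1, 1, 2 and 1 samples. What part the number of samples had in these shares was not tested.

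Shared peaks recurred by site as well. Of shared Spo11KO peaks at CTCF peaks without a hotspot or start site, 84.3% were in Hormad1KO, 86.6% in Iho1KO, 68% in Mei4KO and 47.7% in Prdm9KO. Of those at hotspots, 29.9% were in Hormad1KO, 24.5% in Iho1KO, 3.39% in Mei4KO and 2.60% in Prdm9KO. Of the 29 at start sites without a hotspot, 44.8% were in Hormad1KO, 79.3% in Iho1KO, 58.6% in Mei4KO and 58.6% in Prdm9KO. Wild-type-only peaks at hotspots were found in none of these lists above 5.42%.

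**Figure D5:**
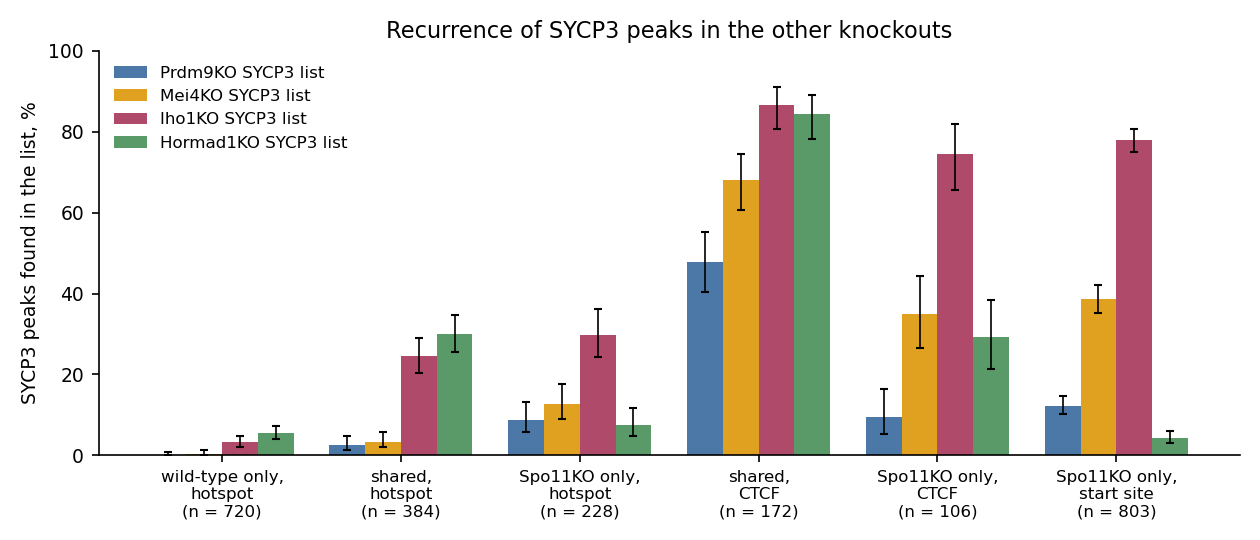
Bars give the percentage of SYCP3 peaks (y axis) of a class at a kind of site (x axis) that were found in each of 4 other knockout SYCP3 lists, with Wilson 95% intervals. Start-site peaks of Spo11KO reach 78% in Iho1KO and 4.36% in Hormad1KO, while shared CTCF peaks are found in Hormad1KO at 84.3%.

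Genes with a Spo11KO SYCP3 peak within 1 kb of an end were counted in lists by function, against 1628 of all 21900 protein-coding genes (7.43%) in Spo11KO and 384 (1.75%) in the wild type. Of 13 genes for the axis and the synaptonemal complex 6 had such a peak in Spo11KO and 0 in the wild type. They were Hormad1, Sycp2 and Sycp3 of the axis, Sycp1 of the transverse filament, and Syce2 and Tex12 of the central element, and all 6 peaks were Spo11KO-only and at the 5′ end. The peak at Sycp3 was chr10:88459126-88462099, 2974 bp wide, and recurred in Mei4KO and Iho1KO. Of 9 germ cell and meiotic entry regulators 5 had a Spo11KO peak: Dazl, the RNA helicase Ddx4, Mael, Meioc and Mybl1, the transcription factor A-MYB. The peak at Dazl was chr17:50291884-50294314, 2431 bp wide.

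Among other testis genes, of 10 break formation genes 1 had a Spo11KO peak, Gm960 (10%, 1.79 to 40.4). That peak was 11824 bp wide and at the 3′ end. Of 12 piRNA pathway genes 1 had a Spo11KO peak, Pld6 (8.33%, 1.49 to 35.4). Of 12 spermatogonial genes 2 did, Dmrt1 and Etv5 (16.7%, 4.70 to 44.8). These intervals include the 7.43% of all genes. None of 9 spermatid genes and none of 14 genes of testis somatic cells had a Spo11KO peak, and with so few genes these 0 counts allow shares of up to 29.9% and 21.5%.

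Broadly expressed genes were also among the sites. A Spo11KO peak was at an end of 13 of 56 translation initiation factor genes (23.2%, 14.1 to 35.8), 15 of 75 DNAJ and HSP chaperone genes (12.5 to 30.4%), 14 of 83 ribosomal protein genes (16.9%, 10.3 to 26.3), 13 of 78 mitochondrial ribosomal protein genes (16.7%, 10.0 to 26.5), 6 of 39 proteasome subunit genes (15.4%, 7.25 to 29.7) and 5 of 32 splicing factor genes (15.6%, 6.86 to 31.8). The intervals of the last pair of lists include the 7.43% of all genes. Rpl10a, Rpl11, Eif1, Dnaja1 and Psmb4 were among them. Of 67 histone genes 32 had such a peak, but these were 17 peaks, 15 of them on chromosome 13, where histone genes are clustered and a peak can serve several. The peak at H2bc12, chr13:22027878-22046208, was 18331 bp wide. Olfactory receptor genes, expressed mainly in the nose, had 1 of 1106 (0.0904%, 0.0160 to 0.510), Hox genes 1 of 39 and Zfp genes 19 of 397 (4.79%). No list was set against genes of like CG count, with which the share of start sites under a Spo11KO-only peak rose, as given below.

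The promoter sequences under these peaks were rich in CG. The 1153 start sites under a Spo11KO-only peak had a median of 25 CG dinucleotides (24 to 26) in the window of 250 bases before to 50 after, against 13 over all 21263 start sites, and a median GC content of 63.3% against 56.3%. With all start sites ranked by their CG count into 4 equal sets, from the fewest to the most, 0.132%, 1.96%, 8.03% and 11.6% had a Spo11KO-only peak. Motifs were searched on both strands of the windows. The ETS factor motif CCGGAAGT was in 11.4% (9.66 to 13.3) of windows under a peak against 5.15% of all windows. For the NRF1 motif GCATGCGC these shares were 7.37% and 3.52%, and for the YY1 motif AAGATGGC they were 6.07% and 3.05%. The cyclic AMP response element TGACGTCA was present in 4.77% of windows under a peak and in 2.23% of all windows. The E-box motif CACGTG had shares of 12.1% under a peak and 7.84% over all windows. Windows with the SP/KLF motif GGGCGG made up 69.5% of those under a peak and 46.2% of all windows. The CCAAT box was as frequent under a peak as elsewhere, in 37.5% (34.7 to 40.3) and 38.2%, and the TATA motif TATAAA was less frequent, in 5.90% (4.68 to 7.41) and 12.6%. No motif contains another, though matches to different motifs can overlap in a window. Among windows with at least 25 CG most of these differences were smaller. There the ETS motif was in 11.2% (8.92 to 13.9) under a peak against 8.17% of all, and the YY1 motif in 6.41% (4.73 to 8.65) against 4.24%. The interval under a peak held the share of all windows for NRF1 (7.57%, 5.72 to 9.95, against 6.14%), the E-box (14.1%, 11.6 to 17.1, against 12.1%), the CCAAT box (33.2%, 29.6 to 37.1, against 30.7%) and TATA (3.29%, 2.14 to 5.03, against 3.17%). The same held for the cyclic AMP response element, at 5.43% (3.89 to 7.52) against 3.99%. The order of SP/KLF turned, at 79.9% (76.6 to 82.9) against 84.9%. All start sites include those under a peak.

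The X chromosome and the end of chromosome 9 stood apart. The X held 54 wild-type and 19 Spo11KO SYCP3 peaks, of which 15 in each list were shared. Of the 72 X hotspots in the highest DMC1 decile, 24 (33.3%) had a wild-type peak and 1 a Spo11KO peak. Of the 24, 0 was kept in Spo11KO (upper bound 13.8%). On autosomes 837 of 1308 such hotspots (64.0%) had a wild-type peak, and 344 of the 837 were kept (41.1%, 37.8 to 44.5). The last 3 Mb of chromosome 9, a region known for an array of minisatellite repeats on which axis proteins gather, held 53 wild-type and 63 Spo11KO peaks, of which 49 and 45 were shared. The widest shared peak of the whole set was there, chr9:124098885-124130530 at Ccr2, 31646 bp in the wild type and 31437 bp in Spo11KO. Also there was chr9:124132975-124153884, with 20910 and 20497 bp. Reads from repeats can map to more than 1 place, and how the authors treated them is not given in the sources used here. Without that region the share of wild-type peaks found in Spo11KO was 37.3%.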

How the data were processed

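The data are ChIP-seq peak lists made by the authors. Per the series' design text, each protein's own-knockout signal was subtracted. Per the submitters' processing notes, Bowtie2, MACS2 and the build mm10 were used. Thresholds, the pooling of replicates and read depth are not given in the sources used here. The SYCP3, MEI4, IHO1 and HORMAD1 lists give positions alone. The wild-type DMC1 list has a deposited signal value per hotspot, with no unit named, and the wild-type CTCF list a deposited score per peak. Both were used only to rank or describe.

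Of the 24 lists 14 were used, with groups taken from the labels. Intervals counted as overlapping at 1 bp or more. Shares have Wilson 95% intervals, differences of shares Newcombe 95% intervals, and medians exact binomial intervals. A difference was called where its interval excluded 0, with no p-value, because each group has 1 list and peaks are not replicates. Start sites, promoter sequences and gene names come from NCBI RefSeq tables of GRCm38.p6, with start sites for 17492 of 21900 protein-coding genes and none for chromosome 18. They stand in place of gene ends because these tables give strand, and the gene lists use either gene end with 1 kb to each side. Named sites are the 3 peaks per class at the highest DMC1 value, at the highest CTCF score and of largest width, of which a part is printed, with chromosome 18 left out. Also selected for naming were the 10 widest Spo11KO-only start-site peaks found in the most other knockout lists. Of list members with a peak, all were selected where these were 10 or fewer, and otherwise those first by alphabet. Of both selections, too, only a part is printed. The result of 1 gene list is not reported here. The members and gene lists were chosen with earlier results of these data known. The matched widths, hotspot profiles, promoter counts and chromosome 9 values were added after the data were seen. Scripts used Python 3.11.15, pandas 2.3.3 and scipy 1.17.1, and were tested on simulated intervals.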

Additional observations from a re-analysis of the deposited data

How the results depend on the processing

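Of 176 recomputed values, 161 kept their direction and their call or stayed within the interval reported. With each SYCP3 peak replaced by the 1 kb around its middle, 35.7% of wild-type peaks were found in Spo11KO and 28.7% of Spo11KO peaks in the wild type. Under that change the wild-type-only minus shared differences were 2.85 points at hotspots and -0.817 at start sites, no longer called, the highest decile held wild-type SYCP3 at 59.4% and 64.7% of Spo11KO-only peaks were in the Iho1KO list. When 50% of the shorter interval had to be overlapped, the wild-type-only minus shared difference at hotspots reversed to -15.1 points, the median DMC1 value of wild-type-only peaks was 2496 and the wild-type share of the highest decile 51.7%. Among peaks not at hotspots, the wild-type-only minus shared difference was -2.55 points at CTCF peaks and -3.19 at start sites, neither called. In the wider 50% of each list the Spo11KO-only minus shared difference at CTCF peaks reversed to 10.6 points. The cause of these changes was not tested. The ratio of matched widths, recomputed under 6 alternatives chosen after seeing the data, ran from 0.350 to 0.353 at hotspots and from 1.01 to 1.02 at CTCF peaks. No paired analysis was possible because each group has 1 peak list, and for the same reason no replicate could be left out. Depth is unknown, so the number of peaks in a list cannot be set against its reads.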

Other observations

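Part of each class lay at none of the site types described, neither hotspot, CTCF peak nor start site: 194 of 1168 wild-type-only peaks (16.6%), 146 of 740 shared Spo11KO peaks (19.7%) and 318 of 1629 Spo11KO-only peaks (19.5%). Peaks at genes without a listed start site can be counted here. HORMAD1 of Spo11KO was listed at 63.0% (54.9 to 70.4) of these shared peaks and at 18.9% (14.9 to 23.5) of these Spo11KO-only peaks, IHO1 at 51.4% and 16.0%, and MEI4 at 5.48% and 0.629%. The Iho1KO SYCP3 list held 80.8% (73.7 to 86.4) of the shared and 67.6% (62.3 to 72.5) of the Spo11KO-only peaks of this kind. Prdm9KO held 59.6% (51.5 to 67.2) and 15.1% (11.6 to 19.4).

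The Y chromosome held 10 wild-type SYCP3 peaks, all of them shared, and 20 Spo11KO peaks, of which 10 were shared. Away from hotspots 6 of the 10 wild-type and 11 of the 20 Spo11KO peaks on the Y were at CTCF peaks. The widest Spo11KO-only peak of all, chr11:84404166-84423410 at an end of Aatf, was 19245 bp, and the third, chr7:16476104-16494410 at Npas1, was 18307 bp. The widest wild-type-only peak, chr4:126844116-126860967 at an end of Zmym4, was 16852 bp.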
